A study of Rattus norvegicus with 10 samples.

Results

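Regions inside the gene body that lie in an exon after the first were examined in the arcuate nucleus of the hypothalamus of rat offspring. They were chosen from the deposited table of methylation regions by position alone: the chromosome is an autosome and the table's annotation names an exon numbered 2 or higher in its transcript. This gave 610 regions of 8957 in the table (6.81%). A further 5 later-exon regions on chromosome X were not members.

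The offspring of high-fat-fed fathers (5 animals) came from male Wistar rats that ate a high-fat diet, and those of chow-fed fathers (5 animals) from male Wistar rats that ate chow. The fathers entered the study on postnatal day 21 and were each mated on postnatal day 90 to 100 with a female that had eaten chow. Chow was fed to all 10 offspring up to postnatal day 35, followed by high-fat food until their arcuate nucleus was taken on postnatal day 70, so both groups share the offspring's own high-fat challenge and no offspring kept on chow was compared. Litters had been reduced to at most 8 pups, and the labels name neither the litter, the father nor the sex of an animal, so the p-values measure only the spread between these samples.

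In vertebrates the CpG-rich island at the start of a gene is usually kept free of methylation, whereas the body of a transcribed gene is usually methylated, in part by the enzyme DNMT3B, which is drawn to a histone mark left by the elongating polymerase. Some genes, above all those of developmental transcription factors, have CpG islands that reach into or lie within later exons. Reduced representation bisulfite sequencing reads CpG-rich restriction fragments, so the exons it samples are CpG-dense ones. The arcuate nucleus senses circulating hormones and nutrients and governs feeding. It was dissected as bulk tissue, so a level that differs because fewer cells of a type were present and one that differs because each cell carried less methylation cannot be told apart.

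The value per animal and region is the authors' average methylation level, printed as a percentage. Differences are given in percentage points as paternal high-fat minus paternal chow. Every region in the table holds at least 10 CpGs, and the authors had picked it out using these 10 animals, so a test on it is not independent evidence of a difference between the diets of the fathers. The read depth behind the levels is unknown. Among the 6100 values of the 610 regions, 12 were missing, 10 of them in the paternal chow animal 4HFB. The paternal high-fat animal 22HFR had the highest mean level of the 10 animals both over all regions (8.24%) and over the later exons (22.9%). The part of either animal in the results below was measured by leaving it out. Tissue identity could not be checked from methylation of these regions.

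The 610 regions carried 472 gene names, of which 373 had a single region and 8 had at least 4; 1 region had no gene name. Exon 2 held 242 of them and exon 3 held 83, and the highest exon number was 51. The last exon of the transcript held 223 regions, including 71 in the second exon of a transcript with only 2 exons. The other 387 were split into 171 in an exon 2 that was not the last and 216 in an exon 3 or later that was not the last. At the median region the transcript had 8 exons. The median region spanned 70 bases and held 11 CpGs, and 296 regions held exactly 10, the lowest number in the table. CpG density was 17.03 per 100 bases at the median region, against 18.2 over all regions.

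Gene names need care in these regions, because the table names the gene with the nearest start site, which need not be the gene whose exon is hit. The exon belonged to the transcript with the nearest start site in 387 regions. In the other 223 it belonged to another transcript, which the table pairs elsewhere with the same gene in 15 cases and with another gene in 54, and with none in 154. Examples are a region named for Aanat, the melatonin-synthesis enzyme, that lies in an exon of Rhbdf2, and a region named for Ltbp4 that lies in an exon of Shkbp1. The named start site lay downstream of the region in 82 cases. Protein-coding genes were named at 560 regions, pseudogenes at 19 and microRNA genes at 11.

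Later exons were the most methylated of the autosomal position classes in every animal. Their mean level per animal was 21.0%, 22.9%, 22%, 21.8% and 21.1% in paternal high-fat offspring and 19.8%, 20.05%, 20.2%, 20.2% and 19.5% in paternal chow offspring. These and all later values per animal are in the order 22HFB, 22HFR, 24HFB, 26HFB and 28HFB for paternal high-fat and 2HFB, 4HFB, 6HFBB, 6HFB and 8HFB for paternal chow. For first exons the mean was 4.14% ± 0.644 in paternal high-fat and 3.25% ± 0.296 in paternal chow offspring, and for promoters it was 3.38% ± 0.590 (paternal high-fat) and 2.54% ± 0.296 (paternal chow; SD, n = 5 each). Introns averaged 7.21% in paternal high-fat and 6.07% in paternal chow offspring, intergenic regions 8.87% (paternal high-fat) and 7.72% (paternal chow), and termination sites 13.7% (paternal high-fat) and 12.3% (paternal chow). No test was made of these class differences, which compare regions within the same animals. In all 10 animals the mean of the later exons was above that of each other class.

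**Figure D1:**
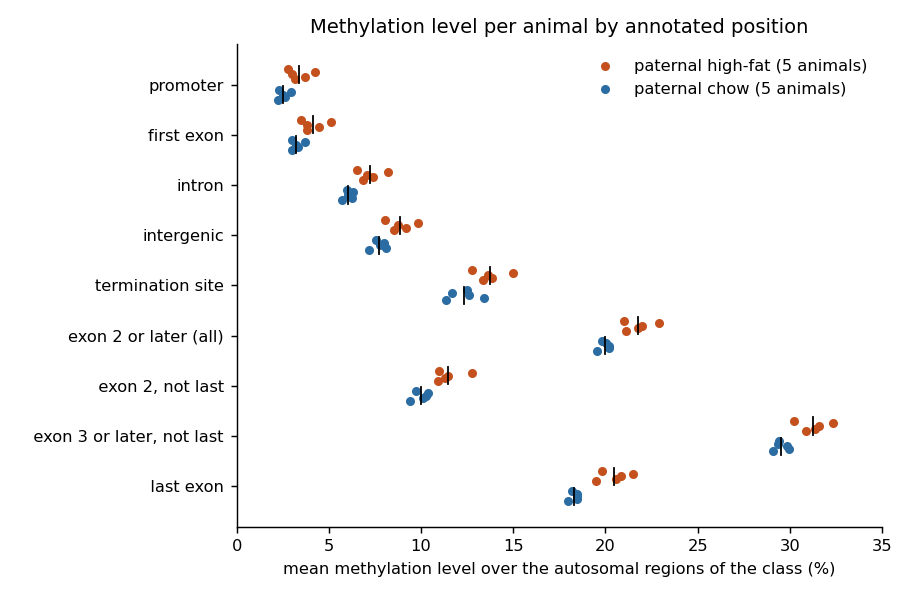
Mean methylation level (%, horizontal axis) over the autosomal regions of each annotated class, with 1 point per animal, paternal high-fat above paternal chow in each row, and a black line at the group mean; the last 3 rows split the later exons. Later exons lie near 20% in every animal, against 2.99% to 5.10% in first exons (highest in 22HFR), and among later exons the internal ones after exon 2 lie highest, near 30%.

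The high mean came from a wide range and not from a common level. The median later-exon region stood at 6.18% (quartiles 2.57% and 26.3%), against 2.27% for all regions. A level of at most 5% was found in 279 regions (45.7%, against 81.1% of all regions and 90.5% of first exons). Between 5% and 20% lay 147 regions, between 20% and 80% lay 130, and above 80% lay 54 (8.85%, against 1.46% of all regions). In 38 regions every animal was above 80%. The spread between animals was widest at intermediate levels, where the median SD of a region was 5.85 points among paternal high-fat and 4.98 points among paternal chow offspring; at levels up to 5% it was 1.56 points (paternal high-fat) and 1.11 points (paternal chow).

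The highest levels were found at an exon of a transcript near a 7SK copy, a gene for a small nuclear RNA that restrains transcription elongation (97.5% over 10 animals), at one near Nudt1, which encodes an enzyme that clears oxidised nucleotides (97.2%), and in exon 3 of 55 of Acacb, which encodes the acetyl-CoA carboxylase of mitochondria (96.5%). For both of the first of these the exon belongs to a transcript that the table pairs with no gene. The lowest were in exon 2 of 9 of Tmem33, a gene for a membrane protein of the endoplasmic reticulum, exon 7 of 12 of Skida1, and the last exon of Neurod2, a neuronal bHLH transcription factor gene. Tmem33 was at 0 in all 5 paternal high-fat animals and at 0, 0, 0, 6.0% and 1.07% in paternal chow animals; its difference of −1.41 points was −0.267 points without 6HFB. Skida1 averaged 1.28% ± 1.80 in paternal high-fat and 0.550% ± 0.962 in paternal chow offspring (SD, n = 5 each), and without 24HFB its difference of 0.733 points was 0.117 points.

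Within the later exons the level went with the position in the gene. Regions in an exon 2 that was not the last had a median of 3.04%, those in the last exon 6.76%, and those in an internal exon after the second 16%. Of these 3 sets, 1.75%, 7.17% and 16.2% of regions stood above 80%. The last exons averaged 20.4% ± 0.798 in paternal high-fat and 18.3% ± 0.225 in paternal chow offspring, and the internal exons after the second 31.3% ± 0.787 (paternal high-fat) and 29.5% ± 0.368 (paternal chow; SD, n = 5 each).

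Distance from the start site was examined in the 387 regions whose exon belongs to the transcript with the nearest start site. Up to 500 bases downstream, 45 regions had a median level of 1.99%, and none stood above 80%. The median was 2.81% at 501 to 1000 bases (52 regions), 3.24% at 1001 to 2000 bases (74 regions) and 6.85% at 2001 to 5000 bases (93 regions). It was 11.1% at 5001 to 10000 bases (64 regions), 28% at 10001 to 20000 bases (22 regions) and 19% beyond that (37 regions). Spearman's rho between level and distance was 0.477 over these 387 regions, which share the same 10 animals and lie in part in the same genes. Regions of low methylation were found at every distance: 27.0% of those beyond 20000 bases were at most 5% methylated. CpG density went the other way, with a Spearman's rho of −0.239 against the level over all 610 regions.

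**Figure D2:**
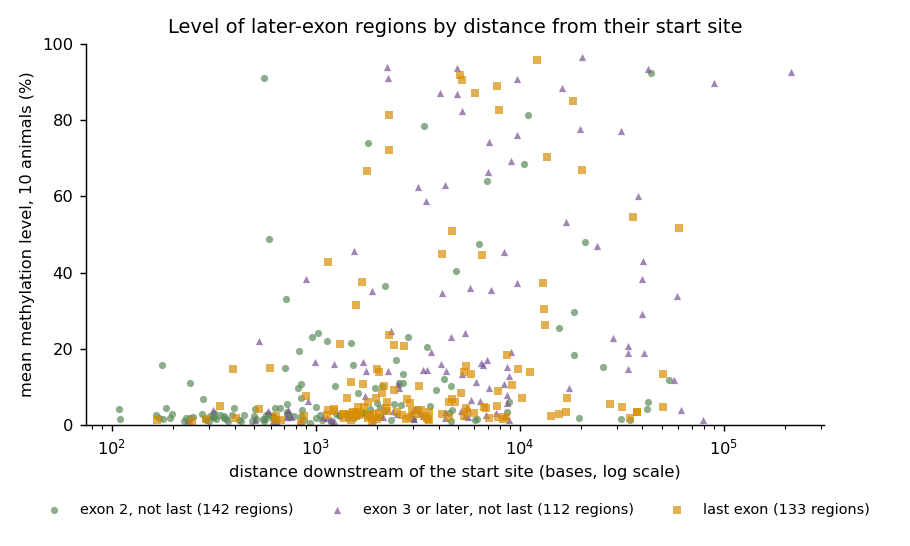
Mean methylation level over 10 animals (%, vertical axis) against distance downstream of the start site (bases, log scale) for the 387 regions whose exon belongs to the nearest transcript, with 1 point per region marked by exon position. Within 500 bases nearly all points lie at the bottom, whereas farther in the gene levels run from near 0 to above 90%.

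The comparison of paternal diets asked whether offspring of high-fat-fed fathers carried another methylation level in these exons. No single later-exon region passed the test. When limma was run on the levels of all 8957 regions, 0 of the 610 had a Benjamini-Hochberg adjusted p below 0.05 (0% of all regions did), and the smallest adjusted p was 0.235. At an unadjusted limma p below 0.05 the paternal high-fat mean was above the paternal chow mean in 119 regions and below it in 19. That is 19.5% and 3.11% of the later exons, against 16.4% and 4.52% of all regions. The higher count was 77 without the paternal chow animal 8HFB and 79 without the paternal chow animal 2HFB. Without 22HFR and 4HFB together the counts were 85 and 21. The matching shares over all regions are not given for these subsets of animals.

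The mean level over later exons was 21.8% ± 0.758 in paternal high-fat and 19.96% ± 0.298 in paternal chow offspring (SD, n = 5 each). The groups did not overlap, with 21.0% in the lowest paternal high-fat and 20.2% in the highest paternal chow animal. The difference of 1.80 points was 1.52 to 1.99 points when any 1 animal was left out. Over all regions, which include the later exons, the groups did not overlap either. There the lowest paternal high-fat animal was at 6.48% and the highest paternal chow animal at 6.46%, with a difference of 1.10 points between group means. In introns the same values were 6.52% and 6.32%, so the separation is not particular to later exons. The groups did overlap in promoters (lowest paternal high-fat 2.77%, highest paternal chow 2.98%) and first exons (3.48% and 3.71%). They also overlapped in intergenic regions (8.04% and 8.09%) and termination sites (12.8% and 13.4%). The median level over later exons was 7.16%, 8.89%, 6.90%, 7.67% and 6.78% in paternal high-fat against 5.71%, 6.44%, 5.71%, 5.99% and 5.77% in paternal chow animals. Since the regions had been selected on this contrast, these values describe the selected regions and are given without a test.

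Of the 610 regions 444 (72.8%) had a higher mean in paternal high-fat offspring, against 71% of all regions in the table. This share was 71.3% in an exon 2 that was not the last, 72.2% in internal exons after the second and 74.4% in last exons. By level it was 69.5% at up to 5%, 80.3% between 5% and 20%, 73.8% between 20% and 80% and 66.7% above 80%. The median difference over later exons was 1.83 points, against 1.41 points over all regions. The size of a difference followed the level: its median absolute value was 1.63 points at up to 5% methylation, 5.72 points between 20% and 80%, and 2.59 points above 80%. A difference of at least 10 points was found in 19 later-exon regions, of which 18 had a level between 20% and 80%. The exception, at 16.1%, is named for Neurog2 and described below.

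**Figure D3:**
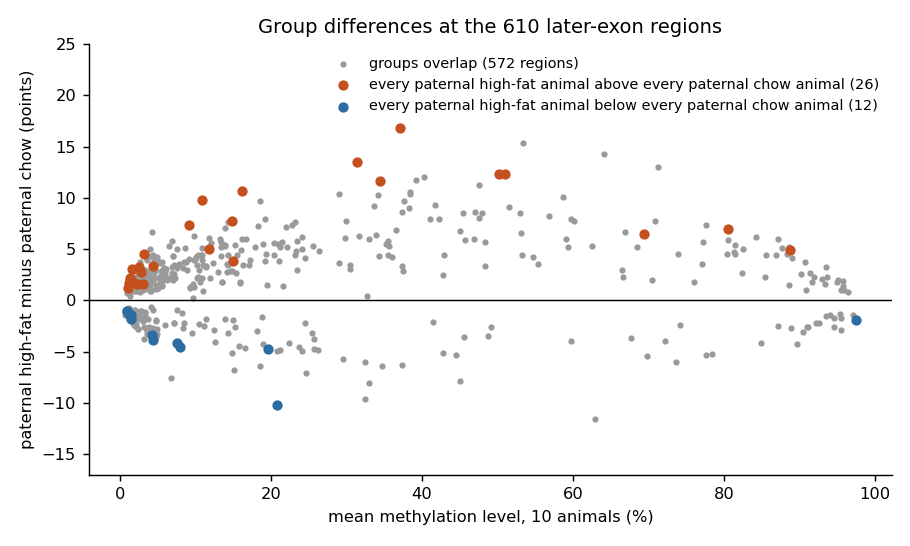
Difference between groups (paternal high-fat minus paternal chow, percentage points, vertical axis) against the mean level over 10 animals (%, horizontal axis), with 1 point per later-exon region. The 26 regions where every paternal high-fat animal lay above every paternal chow animal and the 12 of the opposite kind are coloured; more points lie above the zero line (444) than below it (166), and the differences are widest at intermediate levels.

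Every paternal high-fat animal lay above every paternal chow animal at 26 later-exon regions and below every one at 12, which is 4.26% and 1.97% of them, against 3.93% and 1.22% of all regions. By the authors' deposited table, 3 later-exon regions had a q below 0.05 (0.492%, against 0.848% of all regions). All 3 were among the 26. Each region named below had a limma adjusted p of 0.235 or higher.

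The region with the smallest deposited q among the later exons (3.97e-06 in the authors' deposited table) is named for Galp (ENSRNOG00000022129), the gene of galanin-like peptide, which arcuate neurons make and which affects food intake. It lies on chromosome 1, 71383364 to 71383506, in exon 4 of 4 of a transcript that the table pairs with no gene, upstream of the Galp start site (listed distance −9830 bases). Its level was 42.4%, 54.2%, 47.9%, 46.7% and 36.6% in paternal high-fat animals, against 30.6%, 34.6%, 15.6%, 30.7% and 32.2% in paternal chow animals. The groups did not overlap, and 1 paternal chow animal (6HFBB) stood far below the rest. The difference was 16.8 points (limma SE 4.46, unadjusted p = 0.00209), the largest among the later exons. The neighbouring region of the same exon, at 71383205 to 71383253, had 27.7% ± 5.82 in paternal high-fat and 37.3% ± 13.9 in paternal chow offspring (SD, n = 5 each). Without 4HFB, a paternal chow animal at 59.4%, the difference of −9.63 points was −4.10 points (limma adjusted p = 0.244 with all animals).

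Exon 2 of 9 of Ccdc102a (ENSRNOG00000025843; chromosome 19, 10523340 to 10523394), a gene for a coiled-coil protein, had a deposited q of 0.000253 in the authors' deposited table. It stood at 15.4%, 11.1%, 16.4%, 11.7% and 9.64% in paternal high-fat animals and at 8.26%, 5.66%, 4.07%, 4.23% and 5.2% in paternal chow animals. The difference was 7.39 points (limma SE 1.62, unadjusted p = 0.000435) and was 6.50 points without 24HFB. The last exon of RGD1560108 (chromosome 1, 222674264 to 222674750) held the most CpGs of the later exons, 48, and had a deposited q of 0.00231 in the authors' deposited table. Its levels were 17.4%, 16.9%, 25%, 17.1% and 17% in paternal high-fat and 14.1%, 6.98%, 9.03%, 12.5% and 12% in paternal chow animals. All paternal high-fat animals but 24HFB thus lay within 1 point of each other, above the whole paternal chow group.

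Of the other regions with a higher level and no overlap, the largest difference was found in the last exon of Amer2 (ENSRNOG00000013623; chromosome 15, 40666332 to 40666900), which encodes a regulator of Wnt signalling that binds the APC protein. It stood at 41.3%, 28.7%, 48.6%, 36.4% and 35.8% in paternal high-fat animals, against 24.6%, 24%, 27.1%, 23.6% and 23.9% in paternal chow animals, a difference of 13.5 points (limma unadjusted p = 0.00259). The paternal chow animals lay close together (SD 1.43 points) and the paternal high-fat animals spread widely (SD 7.37 points). A region in the last exon of Rd3 (chromosome 13, 110747716 to 110747800), which encodes a photoreceptor protein that restrains guanylate cyclase, averaged 57.2% ± 6.84 (paternal high-fat) and 44.8% ± 3.48 (paternal chow; SD, n = 5 each), and the groups were separated only narrowly, by 48.4% in the lowest paternal high-fat and 48.2% in the highest paternal chow animal.

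The smallest unadjusted limma p of all later exons, 0.000133, belonged to exon 2 of 17 of Tdrd5 (ENSRNOG00000004018; chromosome 13, 73920430 to 73920473), a Tudor-domain gene that in mice is needed in male germ cells to silence transposons. Its levels were 16.8%, 14.5%, 14.8%, 18.2% and 14.5% in paternal high-fat and 0, 5.51%, 10.2%, 6.35% and 7.65% in paternal chow animals. Paternal high-fat animals lay within 4 points of each other, and the difference was 9.80 points, or 8.31 points without 2HFB, the paternal chow animal at 0.

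A region named for Sirt4, which encodes a mitochondrial sirtuin, averaged 40.3% ± 5.10 in paternal high-fat and 28.7% ± 4.15 in paternal chow offspring (SD, n = 5 each). It lies in exon 3 of 5 of a transcript that the table does not pair with a gene (chromosome 12, 46872846 to 46872888), 3031 bases downstream of the Sirt4 start site. The region named for Neurog2, a proneural transcription factor gene, lies 59087 bases from that start site in exon 4 of 14 of another transcript, so only distance ties it to Neurog2. It stood at 27.2%, 22.9%, 25.9%, 15.8% and 15.4% in paternal high-fat and 9.61%, 11.2%, 10.7%, 9.64% and 12.9% in paternal chow animals. The Rhbdf2 exon named for Aanat averaged 84.1% ± 1.68 (paternal high-fat) and 77.1% ± 5.87 (paternal chow; SD, n = 5 each), and the region named for AC122625.1 56.4% ± 7.49 (paternal high-fat) and 44.1% ± 2.43 (paternal chow; SD, n = 5 each).

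**Figure D4:**
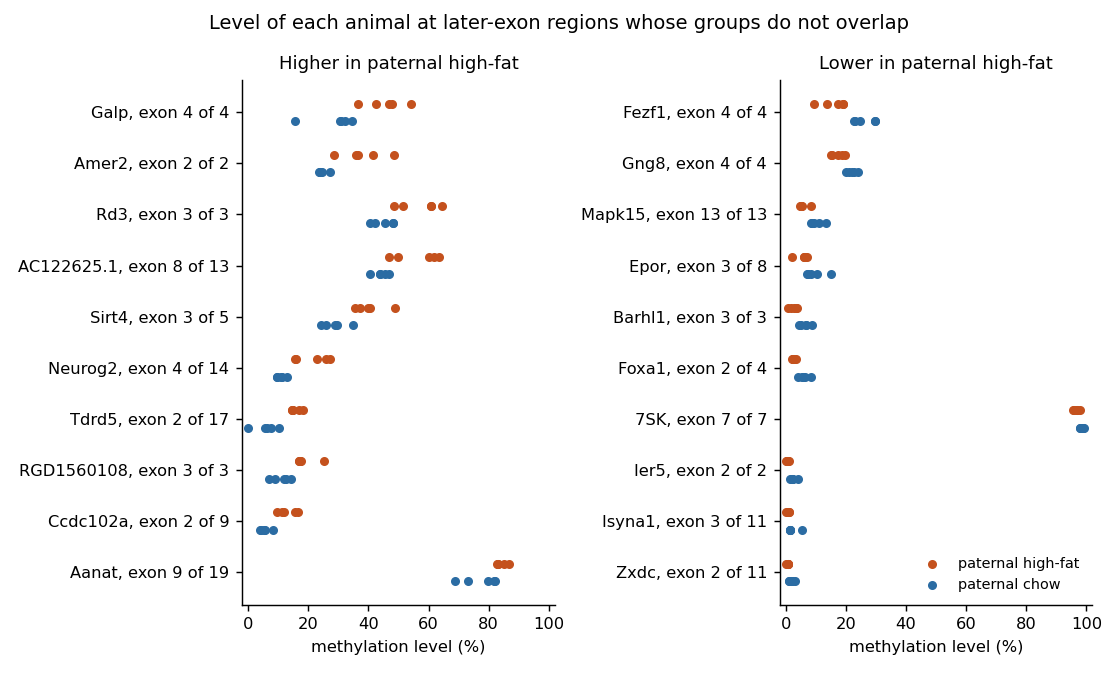
Methylation level (%, horizontal axis) of each of the 10 animals at the 10 higher and the 10 lower later-exon regions with the largest differences among those whose groups do not overlap, paternal high-fat above paternal chow in each row; gene names are those of the nearest start site. Of the higher regions 5 have a mean level between 20% and 80%, 4 a level between 5% and 20% and 1 a level above 80%, and the lower ones lie below 20% in every paternal high-fat animal, except the highly methylated region near 7SK.

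Among regions with a lower level and no overlap, the last exon of Fezf1 (ENSRNOG00000007608; chromosome 4, 50309873 to 50309943), which encodes a zinc finger repressor of the embryonic forebrain, stood at 13.5%, 18.9%, 19%, 9.40% and 17.4% in paternal high-fat animals and at 29.6%, 24.6%, 22.8%, 29.6% and 22.9% in paternal chow animals. The difference of −10.2 points (limma SE 2.71, unadjusted p = 0.00204) was the largest negative one among regions whose groups did not overlap. A region in the last exon of Barhl1, a homeobox gene (chromosome 3, 7491673 to 7491814), had 0.656%, 1.84%, 3.85%, 2.86% and 3.42% in paternal high-fat and 4.53%, 8.58%, 6.71%, 6.84% and 5.06% in paternal chow animals. Exon 2 of 4 of Foxa1, a forkhead pioneer factor gene (chromosome 6, 78546547 to 78546601), averaged 2.61% ± 0.566 (paternal high-fat) and 5.95% ± 1.53 (paternal chow; SD, n = 5 each). In that same exon a second Foxa1 region, 549 bases on, had a difference of 3.47 points in the other direction, or 1.63 points without 2HFB. A region in the last exon of Neurod2 was at 0, 0.370%, 0.741%, 0.556% and 0.385% in paternal high-fat and at 0.956%, 1.36%, 1.40%, 1.18% and 2.35% in paternal chow animals.

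Also lower without overlap, exon 3 of 8 of Epor, the erythropoietin receptor gene (chromosome 8, 22972540 to 22972617), averaged 5.47% ± 2.01 in paternal high-fat and 9.61% ± 3.30 in paternal chow offspring (SD, n = 5 each). A region named for Gng8, which encodes a G protein gamma subunit, averaged 17.2% ± 2.04 (paternal high-fat) and 21.9% ± 1.57 (paternal chow), and one named for Mapk15, an atypical MAP kinase gene, 5.70% ± 1.53 (paternal high-fat) and 10.2% ± 2.05 (paternal chow; SD, n = 5 each). Both lie in the last exon of a transcript that the table pairs with no gene. In the exon near Gng8, a region 38 bases away had a difference of 2.64 points, in the other direction. A region 220 bases away had −4.75 points. Exon 3 of 11 of Isyna1, which encodes the enzyme that makes inositol phosphate from glucose phosphate, averaged 0.756% ± 0.333 (paternal high-fat) and 2.21% ± 1.85 (paternal chow; SD, n = 5 each; limma adjusted p = 0.237). Its difference of −1.45 points was −0.626 points without 4HFB, which stood at 5.51%. A region in exon 2 of 11 of Zxdc had 0.559% ± 0.317 (paternal high-fat) and 1.84% ± 0.799 (paternal chow; SD, n = 5 each). Another region of that Zxdc exon, 22 bases away, had a difference of 1.47 points, in the other direction. A region named for Ier5 had 0.504% ± 0.330 (paternal high-fat) and 2.31% ± 1.02 (paternal chow; SD, n = 5 each). The region near 7SK averaged 96.5% ± 0.913 (paternal high-fat) and 98.4% ± 0.509 (paternal chow; SD, n = 5 each), so its groups were separated at a nearly complete level (limma unadjusted p = 0.0793).

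Of 18 gene lists with 621 genes in all, 59 genes had a later-exon region. None of their regions had a limma adjusted p below 0.05, as in all regions. Among later exons 72.8% of regions were higher, and among all regions 71%. A short list whose regions were all higher is therefore not read as a result about its genes. Hypothalamic transcription factor genes were the fullest list, with 26 regions at 14 of 48 genes. Of these 18 were higher and 8 lower (69.2% higher, against 72.8% of later exons and 71% of all regions), and their median level was 3.48%. At an unadjusted limma p below 0.05 there were 5 higher regions (19.2%) and 1 lower (3.85%), against 19.5% and 3.11% of later exons and 16.4% and 4.52% of all regions. The 1 lower region was that of Fezf1. In the last exon of Rax, a homeobox gene that defines the hypothalamic primordium and tanycytes, a region averaged 2.07% ± 0.868 in paternal high-fat and 0.653% ± 0.404 in paternal chow offspring (SD, n = 5 each; chromosome 18, 61638474 to 61638490).

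Feeding genes had few later-exon regions. Of 27 appetite neuropeptide genes, 3 had 4 regions, 2 higher and 2 lower: the pair named for Galp, 1 in Adcyap1, which encodes the peptide PACAP, and 1 in Cck, which encodes cholecystokinin. Adcyap1 averaged 4.42% ± 4.25 (paternal high-fat) against 1.85% ± 1.04 (paternal chow) and Cck 2.28% ± 1.13 (paternal high-fat) against 3.64% ± 2.66 (paternal chow; SD, n = 5 each), both with wide overlap. The Adcyap1 difference of 2.57 points was 1.02 points without 22HFR, and the Cck difference of −1.37 points was −0.590 points without 4HFB. Of 37 feeding receptor genes, 3 had 4 regions, all higher. Exon 3 of 4 of Drd4, a dopamine receptor gene (chromosome 1, 214280316 to 214280567), stood at 6.15%, 3.50%, 4.73%, 0.779% and 2.84% in paternal high-fat and 0.325%, 0.833%, 1.05%, 0.848% and 1.46% in paternal chow animals. All paternal high-fat animals but 26HFB lay above all paternal chow animals (limma unadjusted p = 0.0164). A region in the last exon of Sstr1, a somatostatin receptor gene, averaged 1.98% ± 1.46 (paternal high-fat) and 0.577% ± 0.751 (paternal chow; SD, n = 5 each). Leaving out 22HFR gave 0.918 points there in place of 1.40 points.

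Metabolic signalling genes had 2 regions for insulin and leptin signalling (33 genes listed) and 2 for lipid and energy genes (31 listed), all higher. Exon 2 of 4 of Foxo3, a transcription factor gene restrained by insulin, had 4.13%, 13.9%, 3.01%, 3.19% and 3.65% in paternal high-fat and 2.35%, 0, 4.2%, 6.62% and 1.5% in paternal chow animals. The difference of 2.64 points was 0.561 points without 22HFR (limma adjusted p = 0.283). A region named for Pik3r2, a gene for a regulatory subunit of phosphoinositide 3-kinase, averaged 93.1% ± 0.647 (paternal high-fat) and 90.8% ± 2.82 (paternal chow), and 1 named for Ppard 4.81% ± 1.62 (paternal high-fat) and 2.21% ± 1.45 (paternal chow; SD, n = 5 each), both in exons of transcripts the table pairs with no gene and upstream of the named start site. The limma adjusted p of the Pik3r2 region was 0.256. Acacb, which had a value in 4 of the paternal chow animals, averaged 96.9% ± 3.44 in paternal high-fat (SD, n = 5) and 96.0% ± 2.84 in paternal chow offspring (SD, n = 4); without 8HFB the difference of 0.814 points was −0.523 points (limma adjusted p = 0.682).

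The imprinted list had 1 region, in exon 2 of 15 of Gnas, the gene of the stimulatory G protein alpha subunit (chromosome 3, 172387822 to 172387883). It stood at 36.4%, 48.2%, 36.1%, 43.8% and 35.8% in paternal high-fat and 33.3%, 26.5%, 31.2%, 41.8% and 33.1% in paternal chow animals, with overlap (limma adjusted p = 0.239). Regulators of DNA methylation and chromatin had 4 regions at 4 of 42 genes, all higher. Exon 2 of 8 of Mbd2, which encodes a reader of methylated CpGs, averaged 1.75% ± 1.26 (paternal high-fat) and 0.293% ± 0.433 (paternal chow; SD, n = 5 each), with overlap. Exon 29 of 31 of Bahcc1, which encodes a chromatin reader, averaged 80.1% ± 4.95 (paternal high-fat) and 74.4% ± 7.28 (paternal chow; SD, n = 5 each; limma adjusted p = 0.246). In that paternal chow group 2HFB stood at 87.2%, above every paternal high-fat animal, and without it the difference of 5.70 points was 8.92 points.

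Genes of neuronal signalling included regions in both directions. GABA and glutamate synapse genes had 13 regions at 6 of 52 genes, 7 higher and 6 lower. Exon 24 of 25 of Shank1, a postsynaptic scaffold gene (chromosome 1, 100338074 to 100338152), averaged 12.9% ± 2.97 (paternal high-fat) and 8.51% ± 3.98 (paternal chow), while another region of that exon had a difference of −4.03 points, or −2.24 points without 4HFB (SD, n = 5 each). A region named for Rims1, a gene of the presynaptic active zone, averaged 2.54% ± 2.04 (paternal high-fat) and 0.595% ± 0.309 (paternal chow; SD, n = 5 each). Leaving out 26HFB gave 1.19 points there in place of 1.95 points. Another region of the same exon, 400 bases away, had a difference of −2.98 points, in the other direction. Ion channel genes had 9 regions at 8 of 66 genes, 6 higher and 3 lower. Exon 3 of 6 of Kcnc4, a voltage-gated potassium channel gene (chromosome 2, 210240409 to 210240514), stood at 18.5%, 21.0%, 18.7%, 19.7% and 20.4% in paternal high-fat and 19.2%, 11.4%, 13.2%, 13.7% and 10.7% in paternal chow animals, so that 1 paternal chow animal (2HFB) lay among the paternal high-fat animals. A region in exon 2 of 3 of Kcng2 averaged 3.01% ± 1.24 (paternal high-fat) and 5.67% ± 2.63 (paternal chow; SD, n = 5 each). Leaving out 2HFB gave −1.64 points there in place of −2.66 points. Another region of that Kcng2 exon, 422 bases away, had a difference of 3.07 points, in the other direction.

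Adhesion and axon guidance genes had 5 regions at 5 of 62 genes, 3 higher and 2 lower. Exon 7 of 17 of Epha8, an ephrin receptor gene, averaged 90.6% ± 2.65 in paternal high-fat and 86.1% ± 3.20 in paternal chow offspring, and exon 2 of 17 of Cdh2, the N-cadherin gene, 1.36% ± 0.653 (paternal high-fat) and 2.63% ± 1.27 (paternal chow; SD, n = 5 each; limma adjusted p = 0.252 for Cdh2). The collagen and matrix list had 1 higher and 1 lower region: the Shkbp1 exon named for Ltbp4 averaged 39.4% ± 10.5 (paternal high-fat) and 29.1% ± 5.12 (paternal chow), and a region named for the protease gene Mmp9 23.5% ± 4.80 (paternal high-fat) and 25.7% ± 5.18 (paternal chow; SD, n = 5 each; limma adjusted p = 0.529 for Mmp9). The Mmp9 difference of −2.21 points was −0.762 points without 4HFB. The circadian list had 2 higher regions. That in exon 5 of 7 of Bhlhe41, a repressor of the clock, had 3.10%, 1.57%, 2.40%, 3.31% and 0.718% in paternal high-fat and 0.612%, 0, 0.681%, 0.366% and 0.176% in paternal chow animals, without overlap (limma unadjusted p = 0.00794). A region named for Dbp, a clock output factor gene, averaged 2.63% ± 0.902 (paternal high-fat) and 1.18% ± 0.445 (paternal chow; SD, n = 5 each). The stress and monoamine list of 34 genes had no later-exon region.

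Markers of glia, vessels, blood and pituitary, which a dissected sample may include, had few later-exon regions. Oligodendrocyte markers had 2 of 19 genes, both higher. Exon 2 of 6 of Mbp, the myelin basic protein gene (chromosome 18, 79413239 to 79413322), stood at 72.0%, 77.6%, 78.5%, 68.1% and 60.2% in paternal high-fat and 60.6%, 64.3%, 66.6%, 50.6% and 42.9% in paternal chow animals. Only 28HFB among paternal high-fat animals and 2HFB, 4HFB and 6HFBB among paternal chow animals lay in the shared range (limma unadjusted p = 0.0112). Exon 3 of 5 of Sox10, the transcription factor gene of the oligodendrocyte lineage, averaged 15.9% ± 2.57 (paternal high-fat) and 12.4% ± 2.21 (paternal chow; SD, n = 5 each). Astrocyte and tanycyte markers had the 2 Rax regions, both higher. The other Rax region averaged 2.78% ± 1.60 (paternal high-fat) and 1.86% ± 0.669 (paternal chow; SD, n = 5 each; limma adjusted p = 0.374). Leaving out 26HFB gave 0.240 points there in place of 0.918 points. The 1 microglial region, in Irf8, averaged 10.5% ± 2.43 (paternal high-fat) and 8.88% ± 2.13 (paternal chow; SD, n = 5 each; limma adjusted p = 0.381), and without 8HFB its difference of 1.57 points was 0.942 points. Vessel and blood markers (Sox17 and Tal1) and pituitary markers (Pitx1 and Lhx3) had 4 regions each, 2 higher and 2 lower. The part of cell composition in the results was not tested.

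Of the genes named, 8 had at least 4 later-exon regions, and in 3 of them every region was higher in paternal high-fat offspring. Since 72.8% of later-exon regions and 71% of all regions were higher, this count is not read as a result about these genes. The regions of Egr3, an immediate early zinc finger gene, all lie in its last exon on chromosome 15 between 51758640 and 51759159. The first averaged 13.4% ± 2.06 (paternal high-fat) and 8.29% ± 1.45 (paternal chow) and the second 17.5% ± 3.67 (paternal high-fat) and 10.4% ± 2.68 (paternal chow; SD, n = 5 each). Their differences of 5.11 and 7.05 points had unadjusted limma p-values of 0.00474 and 0.00535, and the other 2 Egr3 regions had differences of 3.72 and 2.25 points, the last being 1.18 points without 22HFB (limma adjusted p = 0.300). In Tbx3, which encodes a T-box factor of arcuate neurons, 4 regions in exon 7 of 8 had differences of 2.08 to 3.80 points (limma adjusted p = 0.235 to 0.302), and by group medians 1 of them had a difference of −0.400 points. Leaving out 24HFB or 4HFB gave 1.33 and 1.17 points at the regions with 2.82 and 2.08 points. The level in that Tbx3 exon was 21.1% ± 3.41 (paternal high-fat) and 17.3% ± 1.94 (paternal chow) at the region farthest from the start site and 6.79% ± 2.09 (paternal high-fat) and 4.71% ± 2.43 (paternal chow; SD, n = 5 each) at the nearest. AABR07044388.2, a locus on chromosome 20, had differences of 1.09 to 1.82 points in exon 2 of 10, with limma adjusted p-values of 0.370 to 0.566. By group medians 1 of these had a difference of −0.385 points, and without 24HFB 3 of them had 0.210, 0.448 and 0.743 points.

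In the other 5 genes the directions were mixed. Dll3, which encodes an inhibitory Notch ligand, had 3 regions in exon 2 of 9 (chromosome 1, 85486218 to 85486471). The outer ones averaged 27.0% ± 5.37 (paternal high-fat) against 19.3% ± 4.70 (paternal chow) and 25.5% ± 3.25 (paternal high-fat) against 18.4% ± 4.78 (paternal chow), and the one between them 21.7% ± 5.49 (paternal high-fat) against 26.6% ± 5.21 (paternal chow; SD, n = 5 each; limma adjusted p = 0.266 for this last, whose difference of −4.88 points was −3.16 points without 6HFBB). The remaining Dll3 region, in exon 7 of 9, averaged 12.1% ± 1.86 (paternal high-fat) and 7.92% ± 2.35 (paternal chow; SD, n = 5 each). Lhx5, a LIM homeobox gene of the developing hypothalamus, was higher in 3 of 4 regions, the largest difference being 5.97 points in exon 2 of 5. Without 22HFR, 4HFB or 24HFB the other 3 Lhx5 differences of 2.97, 1.19 and −1.10 points were 1.90, 0.757 and −0.514 points. Grin2c, which encodes an NMDA receptor subunit, had 1 higher and 1 lower region in each of exons 5 and 15 of 15, with differences of −2.59 to 2.17 points. For 3 of these 4 Grin2c regions leaving out 1 animal moved the difference over 1.5 times: 2.17 points became 1.18 points without 28HFB, 1.33 became 0.835 points without 26HFB, and −2.24 became −1.41 points without 4HFB. Prdm8, a gene of a PR-domain repressor, gave its name to 5 low regions (mean level of each group 0.313% to 3.34%) with 3 higher and 2 lower. All of them lie in the last exon of a transcript that is paired with no gene. The higher Prdm8 differences of 1.51, 1.5 and 1.22 points were 0.831, 0.852 and 0.698 points without 28HFB, 26HFB and 28HFB in that order, the first was 2.65 points without 4HFB, and a lower one of −1.45 points was −0.731 points without 6HFBB. A region of the exon near Krt10, a keratin gene, was lower and its 3 others were higher, and for 1 of these the difference of 0.980 points was −0.0520 points without 22HFR (limma adjusted p = 0.445). The other higher Krt10 differences of 1.92 and 1.33 points were 0.803 points without 22HFR and 0.871 points without 26HFB.

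**Figure D5:**
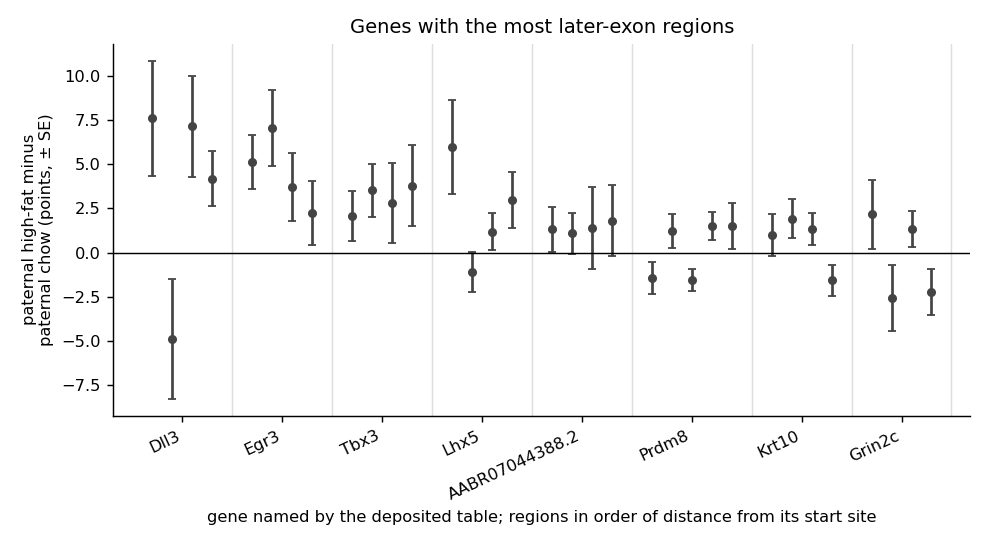
Difference between groups (paternal high-fat minus paternal chow, percentage points, ± limma SE) at each region of the 8 genes with at least 4 later-exon regions, in order of distance from the start site within a gene. All points of Egr3, Tbx3 and AABR07044388.2 lie above zero, whereas Dll3, Lhx5, Prdm8, Krt10 and Grin2c have points on both sides.

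Neighbouring regions of the same exon did not always share a direction. Among the 610 regions, 105 pairs were next to each other in the same exon of the same transcript, with a median gap of 57.0 bases. Both members were higher in paternal high-fat offspring in 53 pairs and both lower in 11, and in 41 pairs they differed in direction. Of the 69 pairs at most 100 bases apart, 26 differed in direction (37.7%), as did 15 of the 36 pairs farther apart. Over all autosomal regions 527 of 1181 neighbouring pairs at most 100 bases apart differed (44.6%), so that nothing particular to later exons is read from this count. The levels of the 2 members differed by a median of 1.88 points. Tal1, a blood-lineage transcription factor gene, and Pitx1, a pituitary one, gave examples of such pairs. Within exon 3 of Tal1, 1 region averaged 3.76% ± 2.19 (paternal high-fat) against 0.955% ± 0.699 (paternal chow) and the next 3.03% ± 3.01 (paternal high-fat) against 6.21% ± 3.22 (paternal chow; SD, n = 5 each), the second difference of −3.18 points being −1.77 points without 4HFB. Within the last exon of Pitx1, 1 region averaged 8.18% ± 3.82 (paternal high-fat) against 5.53% ± 1.31 (paternal chow) and the next 4.80% ± 3.17 (paternal high-fat) against 7.18% ± 1.30 (paternal chow; SD, n = 5 each; limma adjusted p = 0.252 and 0.249). Without 1 animal these 2 Pitx1 differences were as small as 1.37 points (26HFB) and −1.69 points (24HFB). The part of the authors' region calling in such pairs was not tested.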

How the data were processed

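Libraries of 10 arcuate nuclei were made with a Zymo-Seq kit for reduced representation bisulfite sequencing, per the labels' protocols. Trim Galore, Bismark and Bowtie are listed as tools, per the submitters' processing notes. Regions were called by the authors with metilene on both groups, per the file headers. Genome build, coverage filter, conversion rate and caller settings: not given in the sources used here. Coordinates are printed as deposited. The deposited table held, per region, the methylation fraction per animal, the group mean fractions, the authors' q-value and p-values, the count of CpGs, and 2 deposited values read as a score: the signed difference and the distance from a start site. It held no read counts, so depth is unknown and errors come from the spread between animals alone. The group of each column comes from the header line above it; the animal names match no sample title, and the columns served as 5 replicates per group without numbers. The names 22HFB and 22HFR, and likewise 6HFB and 6HFBB, share a leading number whose meaning is not given, so these pairs may not be independent and n = 5 counts each column. No 2 columns were copies of each other, with at most 0.165% of their values above 0 equal.

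Fractions were multiplied to percent. Levels of all 8957 regions were fitted with limma 3.58.1 (R 4.3.3), with its empirical Bayes step and variance trend, and adjusted by Benjamini-Hochberg over all regions, with a threshold of 0.05. A missing level was left out of that region's fit. In a test on simulated data, made from all 8957 regions with 5 against 5 animals, 0% of the 50 later-exon regions changed by 2 points were called. The share was 36% for 5 points, 66% for 10 points and 94% for 20 points, and 3 unchanged regions were called. Simulated levels were drawn independently for each region and animal from a normal distribution with that region's mean and within-group SD. The change was made downward where a region's mean was above 50%. Levels beyond the possible range were then set to its nearest end, so levels near the ends no longer followed that distribution. Shifts that an animal shares across regions were not simulated, so these shares need not hold for the measured levels. Python 3.11.15, pandas 2.3.3, SciPy 1.17.1 and matplotlib 3.10.9 were used for the rest. Of 472 gene names, 424 matched a RefSeq symbol and 8 a synonym. No genome of the table's build was used here, so no region sequence is printed.

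The members and the gene lists were chosen with earlier results of these data known. Regions named are those with a deposited q below 0.05, the 10 higher and 10 lower with the largest differences among regions whose groups do not overlap (since limma called none), up to 2 per list by unadjusted p, the genes with most regions with ties kept, and the 3 highest and 3 lowest levels. Adcyap1, Cck and the second regions of Foxa1 and Shank1 were added after their values were seen. So were the further regions in the exons named for Rims1, Kcng2, Zxdc and Gng8. Alternatives tried: a logit scale (offset 0.01), other variance models, other thresholds, at least 15 CpGs, other definitions of the members, averaging the columns that share a leading number (leaving 4 per group), and leaving out animals.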

Additional observations from a re-analysis of the deposited data

Results flagged for a closer look

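An animal was flagged when it stood apart from the 4 others of its group, by the ratio of its gap to the group's range. This happened in 20 of 176 groups examined. No mean or median over the later exons had such an animal. A chance rate of about 1 in 20 applies to independent, normally distributed levels. Some flagged groups lie near the lowest possible level (Tmem33, Skida1), and some flagged regions are neighbours (Krt10). The regions were also named in part for large differences or extreme levels. The count of flagged groups is therefore not compared with that rate.

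Among paternal high-fat animals 22HFR stood high at 4 regions. It was at 13.9% at Foxo3 (the next at 4.13%), at 36.0% at the first Dll3 region (next 26.6%), and at 7.14% and 6.49% at 2 adjacent regions near Krt10 (next 2.25% and 2.12%). 24HFB stood high at RGD1560108 with 25% (next 17.4%), and 26HFB at the region named for Mapk15 with 8.42% (next 5.32%). 22HFB stood low at Epor with 1.94% (next 5.98%) and at Zxdc with 0 (next 0.613%), and 28HFB at the first Egr3 region with 9.84% (next 13.5%).

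Among paternal chow animals 4HFB stood high at 4 regions. It was at 5.51% at Isyna1 (next 1.5%), at 11.9% at the second Tal1 region (next 5.77%), at 4.53% at a Grin2c region in exon 15 (next 2.61%) and at 6.36% at a Prdm8 region (next 1.41%). 6HFB stood high at Sstr1 with 1.89% (next 0.392%) and at Tmem33 with 6.0% (next 1.07%). 6HFBB stood low at the region named for Galp with 15.6% (next 30.6%) and high at a region near Krt10 with 4.47% (next 1.04%). 2HFB stood high at Bahcc1 with 87.2% (next 72.2%). 8HFB stood low at a region of AABR07044388.2 with 11.9% (next 15.2%) and high at Skida1 with 2.22% (next 0.526%). The cause of these values was not tested.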

How the results depend on the processing

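No later-exon region passed limma under any alternative run; the smallest adjusted p among them was 0.134 on the logit scale and 0.167 without the variance trend. With at least 15 CpGs, which leaves 98 later-exon regions, 19 higher and 4 lower ones had an unadjusted p below 0.05, 76.5% had a higher mean and 1 had a deposited q below 0.05. Leaving out 1 animal gave 77 to 125 higher and 15 to 25 lower regions at an unadjusted p below 0.05, and 72.1% to 73.4% with a higher mean. Without 22HFR and 4HFB together, 70.7% had a higher mean. Averaging columns that share a leading number gave 112 higher and 15 lower regions at an unadjusted p below 0.05, and 72.3% with a higher mean. The matching shares over all regions are not given for these settings, so no such count or share is read as particular to later exons. In place of the 3 regions with a deposited q below 0.05, Benjamini-Hochberg adjustment of the other deposited p-values over all regions called 346 (Mann-Whitney) and 173 (Kolmogorov-Smirnov) later-exon regions. Every region adjusted had already been picked out by the authors on this contrast. The share called over all regions is not given here, so nothing particular to later exons is read from these 2 counts. The cause of the gap to the deposited q was not tested. Among named regions, group medians reversed the sign at AABR07044388.2 (−0.385 points at 4437881) and Tbx3 (−0.400 points at 42483467), and leaving out 1 animal gave −0.523 to 2.26 points at Acacb and −0.0520 to 1.75 points at a region near Krt10. Of 86 named regions, 37 had a difference that moved over 1.5 times on leaving out 1 animal. No paired analysis was possible because the columns carry animal names and no replicate numbers. Without depth, small levels cannot be told from 0.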
